A study of Mus musculus with 6 samples.

Results

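The phagocyte NADPH oxidase makes superoxide from oxygen with electrons taken from NADPH. Its catalytic core sits in the membrane as a heterodimer of gp91phox (NOX2, gene Cybb), which carries the electrons, and p22phox (Cyba), which holds its partner stable. In resting cells p47phox (Ncf1), the organiser, and p40phox (Ncf4), which binds a phosphoinositide of the phagosome membrane, stay in the cytosol, and on stimulation they move to the core, which also needs a Rac GTPase. Neutrophils and monocytes use the enzyme against microbes, and inherited loss of its subunits causes chronic granulomatous disease. The genes described here are these 4 subunit genes, chosen by name as rows of the per-library expression table, by a rule that uses no measured value, although earlier results of these data were known. They are 4 of 36083 genes in the table, and all 4 passed the minimum mean value of 1 that left 12155 genes for testing.

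Expression was measured by RNA-seq in blast crisis chronic myeloid leukemia (bcCML) cells of the mouse, with 3 WT and 3 Sdc1-/- libraries. In both groups, hematopoietic progenitors (KLS cells: c-Kit+, lineage-negative, Sca1+) of B6 donors received BCR-ABL together with NUP98-HOXA9, the pair of fusion oncogenes that drives this leukemia, and cells that carried both were transplanted into NSG mice, a strain without mature B, T and NK cells. The groups differed by the genotype of the donor, WT or Sdc1-/-, an allele disrupted in the signal peptide of the surface proteoglycan Syndecan-1. Lineage-negative (Lin-) leukemia cells were sorted from spleens of both cohorts, which were killed at the same time. The ages of the mice are not in the labels, and the labels do not say which libraries came from separate mice. The study describes its WT libraries as technical replicates in 1 place, so the SDs and p-values below may hold only the spread between preparations.

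Some facts of the whole series bear on every value. Sdc1 itself had rescaled TPM of 1.75, 1.21 and 1.51 under the WT label and 3.85, 3.80 and 4.12 under the Sdc1-/- label, so its transcript level was higher where the gene is labelled as disrupted (log2 fold change 0.99, limma adjusted p = 0.00012), and the groups are therefore named by their labels. The summed values of 4 Y-linked genes were 0.276 to 0.308 in the WT libraries and 68.1 to 78.4 in the Sdc1-/- libraries. By these genes, the sex of the leukemia cells and the genotype cannot be told apart here. The study states that its animals were matched for age and sex, and no other marker of sex was read here. Lineage depletion is meant to remove mature lymphoid, myeloid and erythroid cells. Of the lymphoid markers, 5 of 6 B cell markers and 6 of 7 T and NK cell markers stayed under 1 in every library. The list of mature neutrophil markers summed to 4297 to 4351 in the WT libraries and 1515 to 1598 in the Sdc1-/- libraries. The granule gene Ngp led this sum with a WT mean of 2677, and the lowest WT mean of the list was 7.86. The sum therefore does not give the share of mature cells in the sorted cells. The deposited values of a library summed to 1048875 to 1058263 in WT and to 944973 to 951814 in Sdc1-/-. This difference goes with the genotype and enters every comparison of the values as deposited. The number of reads is unknown, and so no interval from counting could be given.

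The promoters of the subunit genes are shown because the later results name transcription factors that are known to act on them. The set of RefSeq promoters used here, 250 bases before to 50 bases after the start on GRCm38.p6, held 3 of the 4 members and no entry for Ncf4. That of Cybb lies at chrX:9469275-9469574, that of Cyba at chr8:122432891-122433190 and that of Ncf1 at chr5:134229576-134229875, each on the minus strand and printed 5′ to 3′ in the direction of the gene. Capitals mark GGAA, the core of sites for ETS factors such as PU.1, or its reverse complement TTCC.
Cybb: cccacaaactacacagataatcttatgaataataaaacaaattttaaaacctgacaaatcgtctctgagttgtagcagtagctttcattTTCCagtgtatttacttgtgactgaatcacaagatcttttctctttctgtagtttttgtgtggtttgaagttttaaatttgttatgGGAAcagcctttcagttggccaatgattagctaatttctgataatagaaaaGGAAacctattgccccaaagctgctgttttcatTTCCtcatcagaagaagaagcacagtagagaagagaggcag
Cyba: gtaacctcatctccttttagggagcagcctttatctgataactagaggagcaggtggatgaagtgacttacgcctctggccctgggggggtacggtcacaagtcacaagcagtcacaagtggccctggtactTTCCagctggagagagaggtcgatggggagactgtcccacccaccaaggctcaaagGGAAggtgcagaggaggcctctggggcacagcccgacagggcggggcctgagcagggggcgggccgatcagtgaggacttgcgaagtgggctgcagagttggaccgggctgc
Ncf1: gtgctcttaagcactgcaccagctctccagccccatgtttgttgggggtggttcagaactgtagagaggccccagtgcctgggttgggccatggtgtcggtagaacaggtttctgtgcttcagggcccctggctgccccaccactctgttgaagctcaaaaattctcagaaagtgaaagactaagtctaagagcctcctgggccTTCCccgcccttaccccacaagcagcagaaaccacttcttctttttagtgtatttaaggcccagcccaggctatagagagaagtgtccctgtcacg
Both strands were searched for GGAA, for GAGGAA, which contains GGAA, for CCAAT and for GGGCGG, and these motifs were picked with the sequences in view. The Cybb promoter held 4 matches to GGAA, that of Cyba 2 and that of Ncf1 1. Of 27025 promoters of this length, 95.9% held at least 1 such match, with a median of 3. Of these 3 promoters, that of Cybb alone held GAGGAA, at position 10 counted from the start, as did 28.3% of all promoters. CCAAT was found in the Cybb promoter, 56 bases before the start, and in 37.9% of all promoters. GGGCGG, the core of GC boxes, occurred 2 times in the Cyba promoter, 1 time in that of Ncf1 and in 35.9% of all promoters. The promoters also differed in base composition, with a GC content of 35.3% for Cybb, 60.7% for Cyba and 54% for Ncf1 against a median of 52.7%. Only 4.26% of promoters had a lower GC content than that of Cybb. A match is a string of letters and does not show that a factor was bound.

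The 4 genes lie on separate chromosomes. On GRCm38, Cybb (ENSMUSG00000015340) spans chrX:9435252-9487771 on the minus strand with 13 exons in its first listed transcript, and the RefSeq promoter above lies inside this span. Cyba (ENSMUSG00000006519) spans chr8:122424776-122432930 on the minus strand with 6 exons. Ncf1 (ENSMUSG00000015950) covers chr5:134220053-134229625 on the minus strand with 11 exons, and Ncf4 (ENSMUSG00000071715) covers chr15:78244801-78262580 on the plus strand with 10 exons. On the plus strand Cyba is overlapped along its whole length by Gm20388, and Ncf1 by Gtf2ird2 over 4303 bases. Reads are assigned to transcripts by short words, and 0 of the 5802 words of 31 bases in Cybb and 0 of the 2071 in Ncf4 occurred in another gene. For Cyba 7.39% of its words and for Ncf1 9.84% were shared, 326 of the 363 shared words of Ncf1 with Gtf2ird2. The library kit keeps the strand, but whether the counting used it is not stated. Each overlapping gene had lower values than the member it overlaps. Means of WT and Sdc1-/- were 15.6 and 17.8 for Gm20388 and 3.09 and 3.58 for Gtf2ird2.

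All 4 subunit transcripts were lower in the Sdc1-/- libraries, by log2 fold changes from -1.41 for Cybb to -0.52 for Ncf4, and the WT and Sdc1-/- libraries did not overlap for any of them. Lower calls were common in these data. Of the 12155 genes tested, 31.3% were lower and 29.3% higher by limma with a Benjamini-Hochberg adjusted p under 0.05, or 60.7% called in either direction. All Sdc1-/- libraries lay below all WT libraries for 34.2% of genes, and the groups did not overlap in either direction for 66.7%. The sizes of the member changes can be read against the middle 90% of genes, which lay between -0.78 and 0.70.

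Of the membrane pair, Cybb showed the largest change of the members. Its rescaled TPM was 34.2, 39.5 and 36.8 in the WT libraries and 13.0, 12.9 and 13.7 in the Sdc1-/- libraries. Every Sdc1-/- library held less than the lowest WT library by a wide gap, and the Sdc1-/- libraries were close to each other. The mean fell from 36.8 ± 2.64 (SD, n = 3) to 13.2 ± 0.452 (SD, n = 3), which is 35.9% of the WT mean. The log2 fold change, on log2 of the value + 1, was -1.41 (SE 0.058, 95% interval -1.55 to -1.27, limma adjusted p = 3.4e-06). Only 1.21% of the genes tested had a lower log2 fold change. By level, Cybb stood at the 72.7th percentile of these genes in WT and at the 47.8th in Sdc1-/-, so that a transcript well above the median in one group was near it in the other. Cybb is the X-linked member, and for it too the genotype cannot be told apart from the sex of the cells, as read from the Y-linked genes alone.

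Cyba was the most abundant member. Its values were 465, 415 and 456 in WT and 297, 260 and 279 in Sdc1-/-. WT replicate 2 and Sdc1-/- replicate 2 were each the lowest of their group, yet the highest Sdc1-/- library stayed well below the lowest WT library. Its mean fell from 445 ± 26.5 (SD, n = 3) to 278 ± 18.6 (SD, n = 3), 62.5% of WT, with a log2 fold change of -0.68 (SE 0.062, 95% interval -0.82 to -0.53, limma adjusted p = 0.0001). Among the genes tested, 6.61% had a lower log2 fold change. The level of Cyba remained at the 97.4th percentile in WT and the 96.3rd in Sdc1-/-.

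Of the cytosolic subunits, Ncf1 had values of 144, 139 and 145 in WT and 80.5, 77.1 and 79.7 in Sdc1-/-. The libraries within each group were nearly level, with a coefficient of variation of 2.25% in both groups, and the groups were far apart. The mean fell from 143 ± 3.21 (SD, n = 3) to 79.1 ± 1.78 (SD, n = 3), 55.5% of WT, with a log2 fold change of -0.84 (SE 0.032, 95% interval -0.92 to -0.77, limma adjusted p = 2.8e-06). A lower log2 fold change was found for 4.43% of the genes tested.

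Ncf4 moved least of the members. It had values of 50.5, 51.0 and 52.7 in WT and 33.6, 37.2 and 35.5 in Sdc1-/-. The WT libraries again lay close together, and all Sdc1-/- libraries were below them. Its mean fell from 51.4 ± 1.16 (SD, n = 3) to 35.4 ± 1.80 (SD, n = 3), 69% of WT, with a log2 fold change of -0.52 (SE 0.044, 95% interval -0.63 to -0.42, limma adjusted p = 7.1e-05), and 9.89% of genes had a lower one. For each member alone, an exact two-sided permutation test over the libraries gave p = 0.1, the smallest that 3 against 3 allows. In bulk RNA, fewer cells that express a gene and less RNA of it per cell cannot be told apart.

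**Figure D1:**
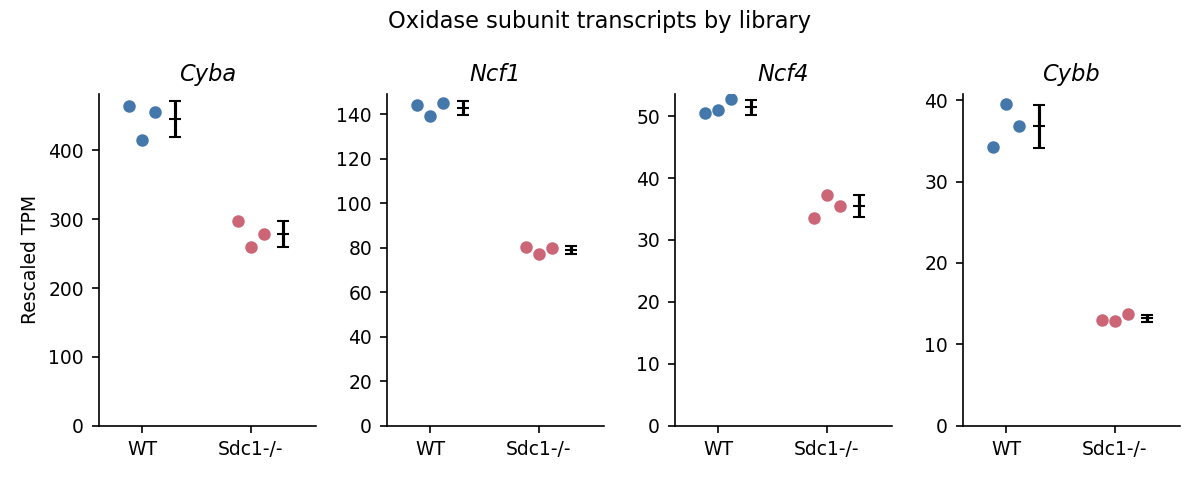
Rescaled TPM (y axis, from 0) of Cyba, Ncf1, Ncf4 and Cybb in the 3 WT and 3 Sdc1-/- libraries, 1 point per library, with the mean and SD of each group as a bar beside the points. For each subunit all Sdc1-/- points lie below all WT points, and the gap is widest in proportion for Cybb, whose Sdc1-/- libraries lie between 12.9 and 13.7 and whose WT libraries lie between 34.2 and 39.5.

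The order of the members by rescaled TPM, a level per transcript length, was Cyba, Ncf1, Ncf4 and Cybb from highest to lowest in 6 of 6 libraries. Neighbours in this order were separated by more than their spread in both groups. The closest were Ncf4 and Cybb in WT, where the lowest Ncf4 library, 50.5, was above the highest Cybb library, 39.5. The 4 values of a library summed to 694, 645 and 690 in WT and to 424, 387 and 408 in Sdc1-/-. Cyba made up most of this sum, 65.8% ± 1.33 (SD, n = 3) in WT and 68.5% ± 1.45 (SD, n = 3) in Sdc1-/-. Cybb, the catalytic subunit, made up 5.46% ± 0.607 (SD, n = 3) in WT and 3.26% ± 0.163 (SD, n = 3) in Sdc1-/-. Ncf1 supplied 21.1% and 19.5%, and Ncf4 supplied 7.61% and 8.75%.

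A ratio of 2 members within a library does not depend on how libraries were scaled to each other. Log2 differences below are those of the ratios themselves, with the value after adding 1 to both members, the scale of the tests, in brackets, and the latter does depend somewhat on scaling. The ratio of Ncf4 to Cybb was 1.48, 1.29 and 1.43 in WT and 2.59, 2.89 and 2.58 in Sdc1-/-. The groups did not overlap, and the log2 ratio was higher by 0.94 (0.89) in Sdc1-/-. Likewise the ratio of Cyba to its membrane partner Cybb was 13.6, 10.5 and 12.4 in WT and 22.8, 20.1 and 20.3 in Sdc1-/-, a log2 difference of 0.80 (0.73). For Ncf1 to Cybb the mean ratio was 3.89 ± 0.347 (SD, n = 3) in WT and 5.99 ± 0.189 (SD, n = 3) in Sdc1-/-, a log2 difference of 0.63 (0.57). All 3 ratios that hold Cybb thus shifted the same way, which its larger fall fixes.

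Among the other 3 members the shifts were smaller. The ratio of Ncf1 to Ncf4 was 2.77 ± 0.0669 (SD, n = 3) in WT and 2.24 ± 0.161 (SD, n = 3) in Sdc1-/-, a log2 difference of -0.31 (-0.32) without overlap. Cyba to Ncf1 went from 3.12 to 3.52 in the means, a log2 difference of 0.17 (0.16), also without overlap. Cyba to Ncf4 had values of 9.22, 8.14 and 8.65 in WT and 8.83, 6.97 and 7.86 in Sdc1-/-, and these overlapped with a log2 difference of -0.14 (-0.15). On log2 of the values + 1, exact two-sided permutation tests of the 6 pairs gave p = 0.1 for the 5 pairs without overlap (0.12 after Benjamini-Hochberg adjustment over the 6 pairs) and p = 0.3 for Cyba to Ncf4, and no pair could have reached 0.05 in this design.

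**Figure D2:**
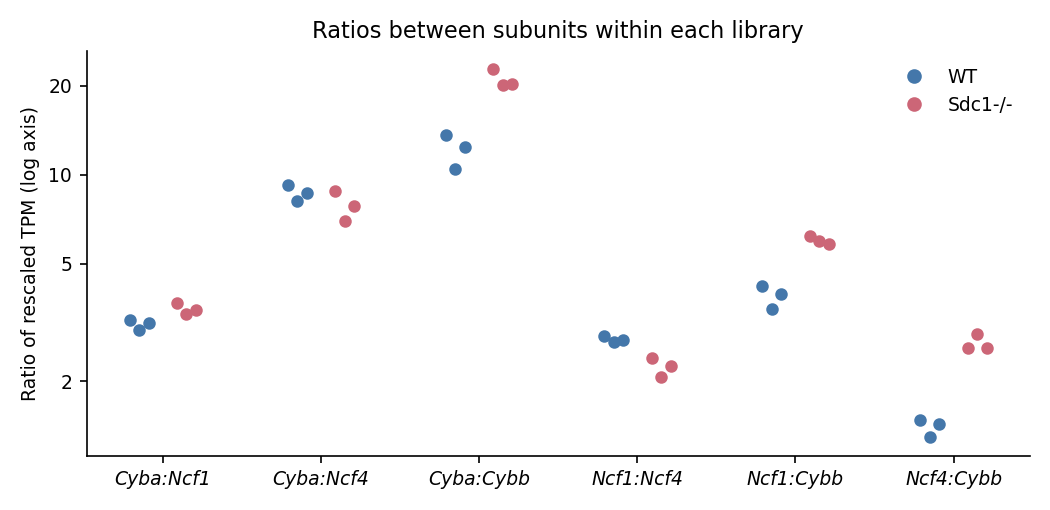
Ratio of rescaled TPM between each pair of subunits within a library (log y axis), 1 point per library, WT in blue and Sdc1-/- in red. The 3 pairs with Cybb as denominator have all Sdc1-/- points above all WT points, and the Cyba to Ncf4 ratios of the groups overlap.

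By a measure of likeness over the 6 libraries (the root mean square difference of centred log2 values among 7179 genes with a mean of at least 10), the genes most like Cybb were Id2 (0.041), Gda (0.052) and Ctla2b (0.054). Nearest to Cyba were St14 (0.03), Flot2 (0.035) and Bckdha (0.038), and nearest to Ncf1 were Fcer1g (0.022), Slc7a8 (0.022) and Anxa11 (0.032). Atf6 (0.022), Naip2 (0.027) and Cd59a (0.027) were nearest to Ncf4. No member was among the nearest 3 of another. The members closest to each other were Cyba and Ncf1 at 0.097, and the farthest apart were Cybb and Ncf4 at 0.45. Since the groups differ for all these genes, the measure mostly compares the size of the group difference.

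Proteins that serve the oxidase were read from a list of 6 partner genes, all tested, of which 5 were lower, 0 were higher and 1 did not pass the test. The median log2 fold change of the list was -0.38, against -0.76 for the members and -0.0097 over all genes tested. With a sum of 1000000 per library, 3 of the partners were lower and 1 was higher.

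The largest change was that of Hvcn1, the proton channel that balances the charge the oxidase moves. It fell from a mean of 16.8 ± 0.462 (SD, n = 3) to 10.1 ± 0.506 (SD, n = 3), a log2 fold change of -0.68 (limma adjusted p = 3.4e-05), the size of that of Cyba. Rac2, the GTPase of the oxidase in blood cells, fell from 370 ± 23.1 (SD, n = 3) to 264 ± 17.7 (SD, n = 3), a log2 fold change of -0.48 (limma adjusted p = 0.00052). The broadly expressed Rac1 fell from 303 ± 7.71 (SD, n = 3) to 264 ± 5.14 (SD, n = 3), a log2 fold change of -0.20 (limma adjusted p = 0.0014). When every library was set to a sum of 1000000, Rac1 no longer passed (-0.05, limma adjusted p = 0.19).

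Rap1a, a small GTPase that associates with the flavocytochrome, fell from 234 ± 9.41 (SD, n = 3) to 169 ± 8.14 (SD, n = 3), a log2 fold change of -0.47 (limma adjusted p = 0.00016). Its close relative Rap1b had a log2 fold change of -0.29 (limma adjusted p = 0.013), and this call was lost with a sum of 1000000 per library (-0.14, limma adjusted p = 0.16) and with quantile normalization (-0.20, limma adjusted p = 0.075). Cybc1, the endoplasmic reticulum protein that the gp91phox and p22phox heterodimer needs to mature, went the other way. It had values of 44.5, 43.4 and 41 in WT and 48.4, 47 and 44.8 in Sdc1-/-, with every Sdc1-/- library above every WT library by a narrow margin. Its log2 fold change of 0.12 did not pass (95% interval 0.01 to 0.23, limma adjusted p = 0.053), although it passed under some alternatives, among them a sum of 1000000 per library (0.27, limma adjusted p = 0.0013), quantile normalization and a minimum mean of 5. It also passed without WT replicate 1 (limma adjusted p = 0.047) or Sdc1-/- replicate 3 (limma adjusted p = 0.037).

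**Figure D3:**
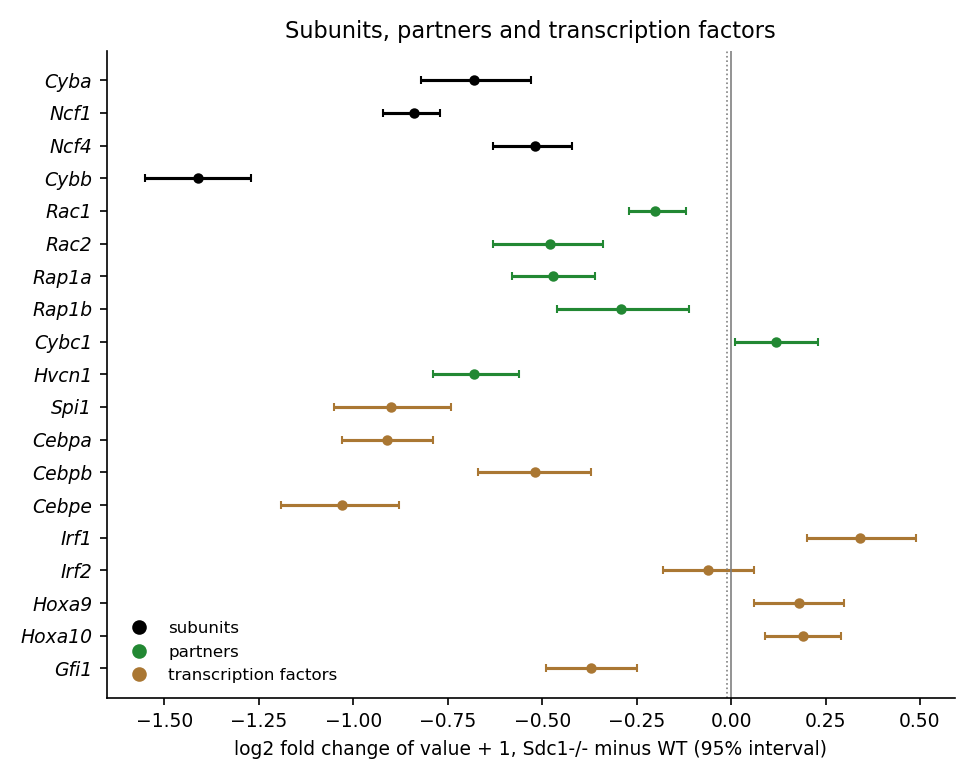
Log2 fold change of value + 1, Sdc1-/- minus WT, with its 95% interval from limma, for the 4 subunits, the 6 partner genes and the 9 transcription factors tested. The solid line is at 0 and the dotted line is the median of all genes tested, -0.0097; Cybb lies farthest to the left at -1.41, and Cybc1, Irf1, Hoxa9 and Hoxa10 lie to the right of 0.

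Other NADPH oxidases contributed almost no transcript. None of the 9 genes for the NOX and DUOX enzymes of other tissues and their organisers reached the minimum mean, and 8 of them stayed under 1 in every library. Nox3 and Duox2 were listed at 0 throughout. The highest was Noxo1, the organiser of NOX1, with a mean of 0.419 ± 0.155 (SD, n = 3) in WT and 0.81 ± 0.45 (SD, n = 3) in Sdc1-/-, overlapping between groups. For comparison, the lowest value of any of the 4 members was 12.9, that of Cybb in Sdc1-/- replicate 2.

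The subunits are brought together by kinases that phosphorylate p47phox and by regulators of Rac. Of 20 genes listed for this assembly signalling 19 were tested, and 9 were lower, 2 were higher and 8 did not pass. Their median log2 fold change of -0.16 was less negative than the change of any member. With a sum of 1000000 per library, 6 of the listed genes were lower and 5 were higher. The most abundant, Arhgdib, an inhibitor that holds Rac in the cytosol, fell by 0.57 on the log2 scale from a WT mean of 1157 (limma adjusted p = 5.6e-06), and Pik3cg, a phosphoinositide kinase downstream of chemoattractant receptors, had the largest fall at -0.80 (limma adjusted p = 8.8e-06), about that of Ncf1. The Rac exchange factor Vav2 rose by 0.65 (limma adjusted p = 0.00017), from a low mean of 1.81 in WT to 3.42 in Sdc1-/-. With a pseudocount of 0.1 its rise was 0.88. The protein kinase C gene Prkca rose by 0.52 (limma adjusted p = 0.0004).

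Of 18 genes listed for the handling of reactive oxygen, 17 were tested, with 9 lower, 2 higher and 6 that did not pass, and a median log2 fold change of -0.11. Gpx3, a secreted glutathione peroxidase, changed more than any member, from a mean of 26.5 ± 1.15 (SD, n = 3) to 7.14 ± 0.396 (SD, n = 3), a log2 fold change of -1.76 (limma adjusted p = 1.2e-06). Gsr, which regenerates glutathione with NADPH, lay between Cybb and Ncf1 at -1.06 (limma adjusted p = 7.9e-06). Both rises were small, 0.17 for the thioredoxin reductase gene Txnrd1 (limma adjusted p = 0.0025) and 0.11 for the peroxiredoxin gene Prdx2 (limma adjusted p = 0.028). The Prdx2 call was lost without WT replicate 2 or 3 or Sdc1-/- replicate 1 or 2 (limma adjusted p between 0.075 and 0.1), which leaves 1 of the list higher. Gpx1, the most abundant gene of the list, did not pass (-0.06, limma adjusted p = 0.35), and its sign turned with quantile normalization and with a sum of 1000000 per library.

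Of 11 transcription factors known to act on phagocyte oxidase genes, 9 were tested, 5 were lower, 3 were higher and 1 did not pass, and the median log2 fold change was -0.37. The largest falls were those of Cebpe and Cebpa, factors of granulocyte maturation, with log2 fold changes of -1.03 (limma adjusted p = 2e-05) and -0.91 (limma adjusted p = 1.1e-05), between those of Cybb and Ncf1. Spi1, the gene of PU.1, was named after its values were seen. The core of its sites, GGAA, is in 95.9% of all promoters, so the printed matches do not single it out. Spi1 had values of 111, 113 and 109 in WT and 65.3, 58.9 and 54 in Sdc1-/-, without overlap. Its log2 fold change was -0.90 (limma adjusted p = 3.8e-05), and whether it acts on the subunit genes here was not tested. Going the other way from the members, the interferon-response factor Irf1 rose by 0.34 (limma adjusted p = 0.0024) and the homeobox factor Hoxa10 by 0.19 (limma adjusted p = 0.0069). Hoxa9, the most abundant by the mean of all libraries, rose by 0.18 (limma adjusted p = 0.017), a call lost without WT replicate 3, Sdc1-/- replicate 1 or Sdc1-/- replicate 2 (limma adjusted p between 0.051 and 0.054). Whether reads of the NUP98-HOXA9 transgene count toward Hoxa9 was not tested.

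Markers of maturing myeloid cells, in which the oxidase is best known, were lower together with the subunits. All 10 mature neutrophil markers were lower, with a median log2 fold change of -1.69, below that of any member. Their changes ranged from -1.92 to -0.46, the latter nearer to 0 than that of any member. The most abundant, the granule gene Ngp, stood at 31.4% of its WT mean of 2677, beside 35.9% for Cybb, and none of these markers was at 0. All 7 granulocyte progenitor markers, led by Ms4a3, were lower with a median of -0.65, between Cyba and Ncf4, and their sum was 1562 to 1670 in WT and 1037 to 1052 in Sdc1-/-. Of 12 monocyte and macrophage markers, led by Ly6c2, 10 were tested, 8 were lower and 1 was higher, with a median of -1.02 and sums of 577 to 599 and of 260 to 268. All 6 eosinophil markers tested, led by Prg2, were lower, with a median of -1.01 and sums of 859 to 890 and of 391 to 393. Among 6 mast cell and basophil markers 5 were lower, with a median of -1.38 and sums of 561 to 580 and of 309 to 317, and the most abundant, Gata2, did not pass (0.05, limma adjusted p = 0.44) except with a sum of 1000000 per library (0.20, limma adjusted p = 0.015). The antibodies that the study lists for lineage-positive cells include those to Gr1, CD11b and TER119, a gate meant to remove maturing granulocytes, monocytes and red cells. The part of these cell types in the lower subunit transcripts was not tested.

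Other marker lists moved less evenly than the subunits. Of 6 stem and progenitor markers, led by Cd48, 3 were lower and 2 were higher, with a median of -0.11. Their changes ranged from -1.36, near that of Cybb, to 0.24. Their sums, to which Cd48 gave the most, were 370 to 390 in WT and 364 to 373 in Sdc1-/-. Cd48 did not pass (0.02, limma adjusted p = 0.7) but did with quantile normalization (0.13, limma adjusted p = 0.014) and with a sum of 1000000 per library (0.16, limma adjusted p = 0.0046). Of 7 erythroid markers, led by Hbb-bt, 6 were lower and 1 was higher, with a median of -0.76, that of the members too, and sums of 10406 to 11080 and of 5791 to 6180. Of 5 megakaryocyte markers 4 were lower and 1, the most abundant, Pf4, was higher, with a median of -0.31 and sums of 496 to 523 and of 498 to 510. The single tested genes of the B cell and the T and NK cell lists, Cd79b and Klrb1c, did not pass, with limma adjusted p of 0.55 and 0.07, and Klrb1c passed with quantile normalization (-0.14, limma adjusted p = 0.036) and without the variance trend (-0.12, limma adjusted p = 0.046).

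**Figure D4:**
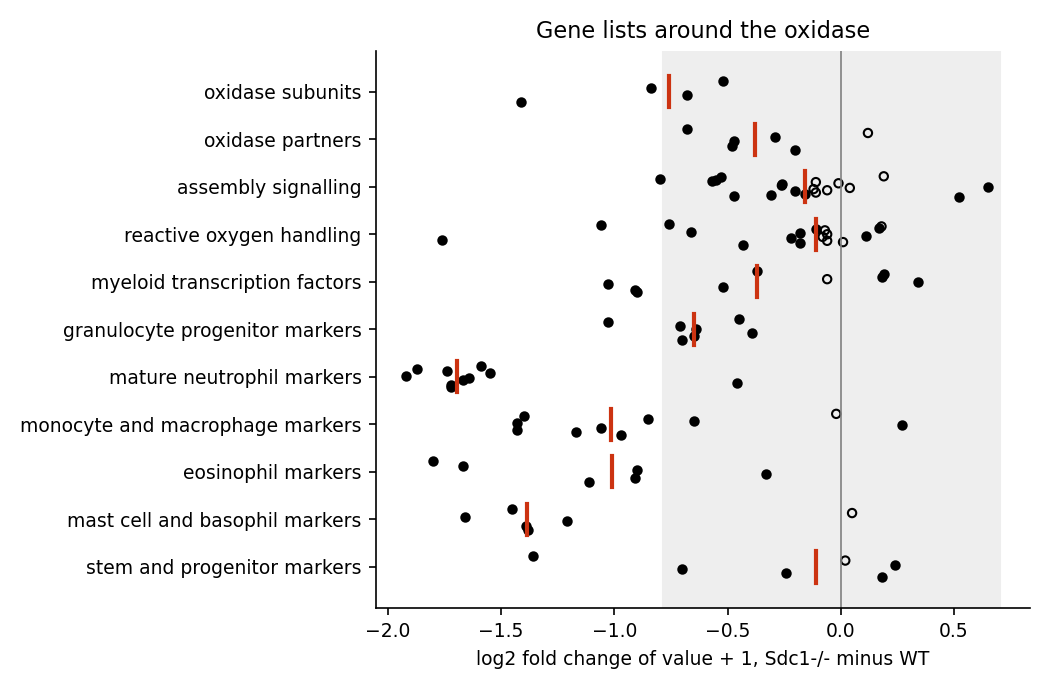
Log2 fold change of value + 1, Sdc1-/- minus WT, of each tested gene in the subunit, pathway and marker lists named at the left, filled where the limma adjusted p was under 0.05 and open otherwise. Vertical bars are list medians and the grey band spans the 5th to 95th percentile of all genes tested (-0.78 to 0.70); the subunit median of -0.76 lies between those of the granulocyte progenitor (-0.65) and the monocyte and macrophage markers (-1.02).

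Genes beside the members on the chromosome, named after their values were seen, did not share 1 direction. Csf2rb2, next to Ncf4, was lower (log2 fold change -1.17, limma adjusted p = 4.8e-06), as was Mvd, next to Cyba (-0.37, limma adjusted p = 0.0017). Gtf2i, next to Ncf1, was higher (0.34, limma adjusted p = 0.0013), and Rcc1l, on the other side of Ncf1, did not pass (0.03, limma adjusted p = 0.71). Both neighbours of Cybb, H2al1k and H2al1o, had means under 1, as did Il17c on the other side of Cyba and Pvalb on that of Ncf4.

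The 4 subunit calls held under each of the 14 alternatives run for them. Over those alternatives Cybb ranged from -1.47 to -1.27 (limma adjusted p from 1.3e-06 to 0.00012) and Cyba from -0.73 to -0.53 (5.3e-05 to 0.001). Ncf1 ranged from -0.86 to -0.69 (1.2e-06 to 7.4e-05) and Ncf4 from -0.56 to -0.38 (4e-05 to 0.00054). The values nearest to 0 came from setting every library to a sum of 1000000, a scaling that moved the median of all genes to 0.12. Under that scaling 30.9% of all calls were lower, against 51.7% with the values as deposited.

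**Figure D5:**
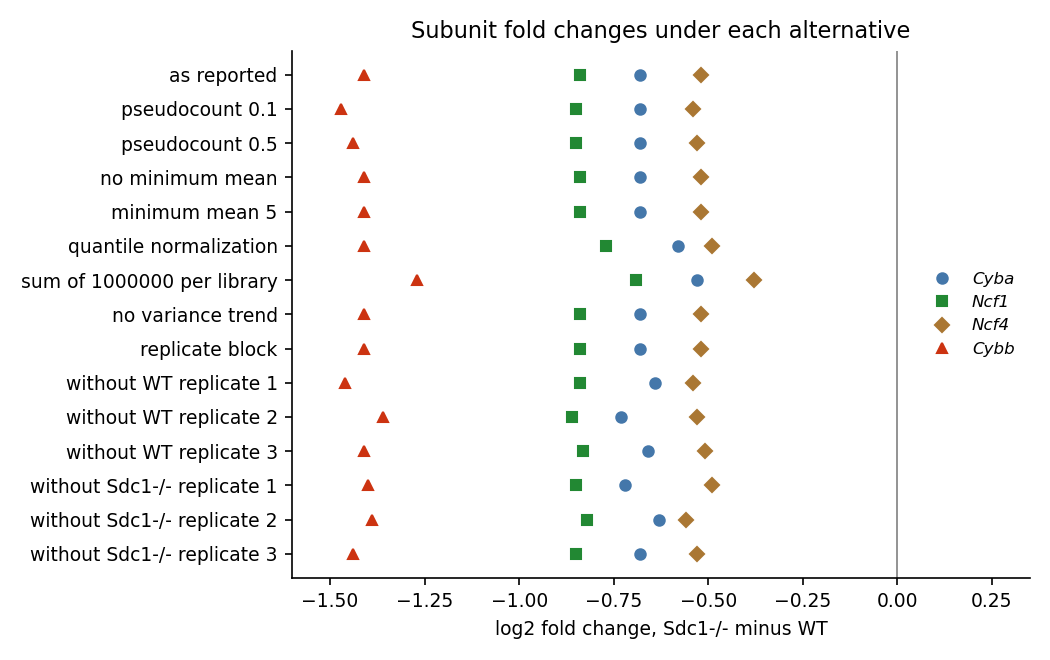
Log2 fold change, Sdc1-/- minus WT, of the 4 subunits as reported and under each of the 14 alternatives named on the y axis, with a line at 0. Cybb stays between -1.47 and -1.27 and apart from the other subunits, and Ncf4 has the change nearest to 0 in every setting.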

How the data were processed

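RNA-seq libraries of 3 WT and 3 Sdc1-/- preparations of Lin- bcCML cells were grouped by their sample titles. Per the labels, reads were assigned with kallisto and handled in sleuth 0.30.0 with the mm10 build; the kallisto version and the annotation are not given in the sources used here. The authors deposited a signal per gene and library, TPM rescaled between libraries. Library sums were 1048875 to 1058263 in WT and 944973 to 951814 in Sdc1-/-. A second deposited table, the authors' own comparison (p-values, q-values and effect sizes), was not used. Read depth is unknown, so precision rests on the 3 libraries per group.

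From these values, log2(value + 1) was tested for the 12155 genes that reached a mean of 1 with limma 3.58.1 in R 4.3.3 (group as the only term, variance trend, Benjamini-Hochberg threshold 0.05). Permutation tests were exact and two-sided. Symbols and positions came from GENCODE M21 (GRCm38), which held 35454 of 36083 identifiers. Python 3.11.15 did the other steps. On simulated data, 195 of 200 genes given a log2 change of 1 (97.5%) were recovered among 12155 genes, and 12 unchanged genes were also called. The simulation changed far fewer genes than the 60.7% called here, and by more than Cyba, Ncf1 or Ncf4 changed. It does not give the recovery of changes of their size. Named were the members, Sdc1, every partner gene, in each other pathway list the most abundant gene and the 2 largest called rises and falls, in each marker list the most abundant gene, and the 3 genes most like each member. A gene of the partner list and one of the transcription factor list are not reported here, and the counts leave them out. Members and lists were chosen with earlier results of these data known. Alternatives changed the pseudocount, minimum mean, scaling, variance trend, replicate block and libraries used.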

Additional observations from a re-analysis of the deposited data

How the results depend on the processing

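The number of reads per library is not known, and 3 libraries a group, which may be technical replicates, limit every test. So does the sex of the cells, which by the Y-linked genes differs with the genotype. The calls and directions of Cybb, Cyba, Ncf1 and Ncf4 held in all 14 alternatives. With a sum of 1000000 per library, 2367 genes were lower in place of 3810. Under that scaling 3 partner genes were lower in place of 5 and 1 was higher in place of 0. Of the assembly signalling genes 6 were lower in place of 9, and 5 were higher in place of 2. Of the reactive oxygen handling genes 5 were lower in place of 9, and 6 were higher in place of 2. Quantile normalization gave 1 higher partner gene and 5 lower reactive oxygen handling genes. A minimum mean of 5 gave 1 higher partner gene and 1 higher assembly signalling gene, since Vav2 did not reach that mean. Without a minimum mean, and likewise without the variance trend, 1 reactive oxygen handling gene was higher. Leaving out 1 library at a time gave 0 to 1 higher partner genes, 1 to 3 higher reactive oxygen handling genes and 3369 to 3594 lower genes in all. The higher partner gene is Cybc1 (without WT replicate 1 or Sdc1-/- replicate 3), and the reactive oxygen count fell to 1 without WT replicate 2 or 3 or Sdc1-/- replicate 1 or 2, where Prdx2 was lost (limma adjusted p of 0.075, 0.08, 0.076 and 0.1). Directions turned for genes that did not pass: Gpx1 to 0.22 with quantile normalization (limma adjusted p = 0.02) and 0.09 with a sum of 1000000, Cd79b to 0.02 and Klrb1c to 0.0074 with that sum, and, over the fits without 1 library, Cd79b (-0.14 to 0.0023) and Gata2 (-0.0067 to 0.09) without WT replicate 2 and Cd48 (-0.0055 to 0.04) without WT replicate 1. On log2 of the values + 1, without any 1 library, the ratio difference of Cyba to Ncf4 ranged from -0.24 to -0.07 and that of Ncf4 to Cybb from 0.83 to 0.92. Deviations from the group means of libraries with the same replicate number had correlations of 0.151, -0.008 and 0.018. For libraries with different numbers they ranged from -0.157 to 0.142. With 3 libraries per group, these values cannot show whether the libraries were prepared in pairs. A fit with the replicate block called 7624 genes in place of 7374 and 1 higher partner gene, and it left the 4 subunit calls in place. It called 13 assembly signalling genes lower in place of 9. The deposited sums were lower in Sdc1-/- than in WT, so the sum of 1000000 raised all Sdc1-/- values relative to WT. The cause of the other shifts was not tested.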
